A study of Homo sapiens with 2 samples.

Results

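MUC1, MUC16, WFDC2, MSLN, FOLR1, KLK6, KLK10, SPP1 and CLU encode surface or secreted proteins that are measured in the blood or on the tumour cells of patients with ovarian cancer. They were taken by name from the array annotation, as 9 of its 30238 gene names and 11 of its 41000 probes. A2780 is an established human ovarian carcinoma cell line. A2780CBN cells had been selected in rising doses of carboplatin, which crosslinks DNA, up to a tolerated dose of 22.2 uM. A2780CBNDXL cells had been selected with carboplatin together with docetaxel, which stabilizes microtubules. A dose of 8.02 uM is listed for this line, and the authors put its tolerated carboplatin dose below that. They put its tolerated carboplatin dose lower still, and so below the 22.2 uM tolerated by A2780CBN. Each line was compared with A2780CC, the A2780 cells co-cultured beside it without selection, so that the control beside A2780CBN and the control beside A2780CBNDXL are separate RNA samples. The resistant lines grew out of gradual dose increases rather than from 1 named clone. RNA of 3 isolations was pooled for each line, and this 1 sample was hybridized to 4 two-colour arrays, with forward labelling on arrays 1 and 3 and reverse labelling on arrays 2 and 4. Arrays 1 and 2 were on slide 1, and arrays 3 and 4 on slide 2. The arrays are thus technical repeats, the SD values below are the spread between arrays, and no test across samples was possible.

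The members differ in how they reach the outside of a cell. MUC1 and MUC16 are membrane-bound mucins whose heavily O-glycosylated ectodomains are shed, and the shed part of MUC16 is the antigen CA125 that is followed during ovarian cancer treatment. Mesothelin, the product of MSLN, is a lipid-anchored surface protein that binds MUC16, and FOLR1 is the lipid-anchored folate receptor alpha. WFDC2 (the antigen HE4), the serine proteases KLK6 and KLK10, osteopontin (SPP1) and the extracellular chaperone clusterin (CLU) are secreted.

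Signals below are the processed intensities of a channel in the arbitrary units of the scanner, and a ratio is the log2 of resistant line over control. A probe was measured where the software called it well above background, and the dimmest such probes of a channel had signals between 19.1 and 27.4. Changed is used below for a mean ratio past a 2-fold limit (log2 of 1 or -1) that had one sign on the 4 arrays, for a probe measured throughout in the resistant or the control channel. By this rule 12.6% of the 17949 genes that passed the signal filter were changed in A2780CBN, 8.01% higher and 4.57% lower. In A2780CBNDXL 17.0% of 17120 genes were changed, 7.72% higher and 9.23% lower. Of the epithelial markers, EPCAM, KRT8 and KRT18 were measured in the resistant lines. EPCAM was changed in A2780CBN and A2780CBNDXL, at 2.07 and 1.67, and KRT18 in A2780CBN, at 1.05. KRT8 was changed in neither line, and CDH1 and KRT7 were measured on no array. The leukocyte marker PTPRC, the endothelial markers PECAM1 and CDH5 and the mesothelial markers WT1 and LRRN4 were likewise measured on no array. All 3 fibroblast markers gave signal, and their summed signal was 1587 to 1806 in A2780CBN against 416 to 498 in its control, and 6264 to 7657 in A2780CBNDXL against 631 to 1228 in its control. DCN, the matrix proteoglycan decorin, was changed in both lines, with ratios of 2.21 and 3.62. The fibroblast marker PDGFRB, a growth factor receptor, had a ratio of 2.36 in A2780CBN and one of -2.53 in A2780CBNDXL, where it was lower on all 4 arrays but did not pass the rule, being measured on 2 arrays in the line and 3 in the control. Of the mesenchymal markers, VIM was changed in A2780CBN, at 1.08, with 1.73 and 1.59 on the forward and 0.53 and 0.49 on the reverse arrays. FN1 was at least 8.77-fold higher there and not measured in A2780CBNDXL. CDH2 had a ratio of -0.205 in A2780CBN. In A2780CBNDXL its ratio was 1.55, but it had no value on array 3 and so did not pass the rule. The part of these markers in the results below was not tested.

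The measurements rest on single 60-base probes, and 5 of them are shown here because the changed members, the MUC16 antigen followed in the clinic and the MUC1 values depend on them. All are written 5′ to 3′ in the sense direction as the array files give them, and each has at least 1 reading frame without a stop. In the SPP1 probe the capitals mark a 12-base stretch that occurs 2 times. In the WFDC2 probes they mark the triplets TGC and TGT, which stand for cysteine, in the open frame that holds most of them. The first WFDC2 probe has 4 such triplets and the second 5, and the 4-disulfide WAP domains of this protein family are rich in cysteine.
SPP1, chr4:89122944-89123003, plus strand, NCBI36: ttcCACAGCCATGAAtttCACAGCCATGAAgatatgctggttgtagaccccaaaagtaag
WFDC2 probe 1, chr20:43542083-43542142, plus strand, NCBI36: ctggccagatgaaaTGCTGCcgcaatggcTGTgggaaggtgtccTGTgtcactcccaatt
WFDC2 probe 2, chr20:43532492-43532551, plus strand, NCBI36: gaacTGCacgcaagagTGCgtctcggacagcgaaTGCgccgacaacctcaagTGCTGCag
MUC1, chr1:153425276-153426350, minus strand, NCBI36: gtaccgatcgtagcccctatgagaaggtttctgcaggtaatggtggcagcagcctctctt
MUC16, chr19:8827801-8829923, minus strand, NCBI36: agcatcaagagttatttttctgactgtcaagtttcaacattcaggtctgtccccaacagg
The MUC1 and MUC16 coordinates cover 1075 and 2123 bases for 60 bases of probe, so both probes span an intron and match spliced RNA. Of the probes not shown, FOLR1 lies at chr11:71584916-71584975, MSLN at chr16:756419-756478, KLK6 at chr19:56158537-56158596, and KLK10 at chr19:56209871-56209930 and chr19:56209408-56209467. All 9 symbols are current in RefSeq, with the annotation of GRCh38.p14.

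Of the 9 members, 5 passed the signal filter in each line, namely SPP1, WFDC2, CLU, FOLR1 and MUC1. SPP1 and WFDC2 were changed in A2780CBN, both higher, and SPP1 alone was changed in A2780CBNDXL, where it was lower. The median log2 ratio of these 5 genes was 0.82 in A2780CBN and -0.06 in A2780CBNDXL, beside medians of -0.06 and 0.04 over all genes that passed the filter. MUC16 and MSLN were measured on no array.

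**Figure D1:**
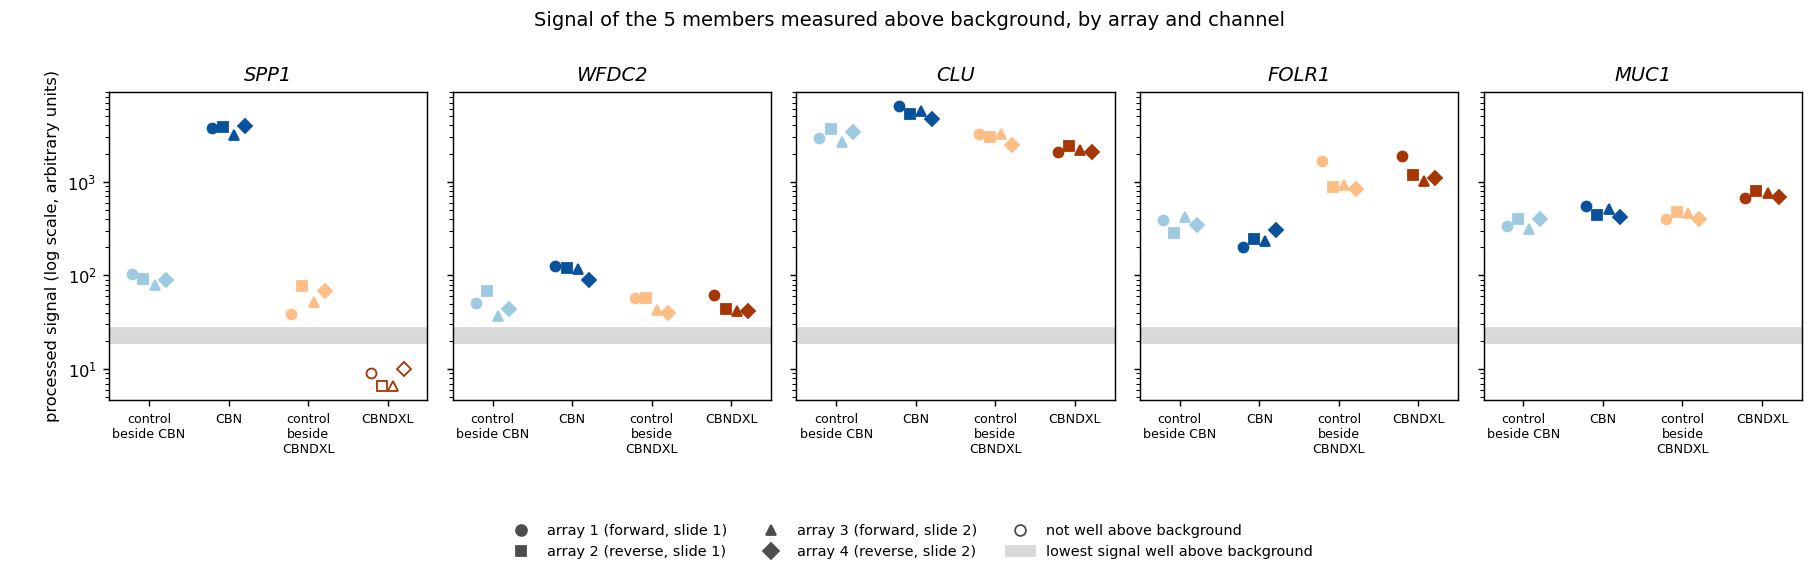
Processed signal on a log axis of the 5 members that passed the signal filter, for the control and the resistant line on the 4 arrays of A2780CBN (blue) and of A2780CBNDXL (orange); each point is 1 array and the grey band holds the dimmest signals called well above background, 19.1 to 27.4. SPP1 lies between 3148 and 3947 in A2780CBN and under the band in A2780CBNDXL, while FOLR1 is higher in both channels of the A2780CBNDXL arrays than in either channel of the A2780CBN arrays.

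SPP1 encodes osteopontin, a secreted phosphoprotein that binds integrins and CD44 on cells. In A2780CBN its signal was 3709, 3813, 3148 and 3947 on arrays 1 to 4, and in the control on the same arrays it was 103, 91.5, 78.4 and 90.4. The resistant and control ranges were far apart on every array, and the SPP1 ratio of 5.33 ± 0.12 (SD, 4 arrays), or 40.3-fold, was the second largest of the 998 higher genes that were measured in both channels. The probe is printed on 10 spots per array, and the spots left after outlier removal, 8 to 10 per array, differed by a CV of 1.45 to 3.62% in the resistant channel. In A2780CBNDXL the SPP1 signal was 9.05, 6.54, 6.64 and 10.1, none of it well above background. The control beside it gave 38.4, 76.6, 51.5 and 69.0, all 4 called well above background. On array 1 this held for a share of 0.78 of the control spots, which ran from 18.16 to 80.93 with a CV of 43.85%. SPP1 was therefore at least 2.66-fold lower in A2780CBNDXL than in its control, with measured means of 2.89 and 5.73 on the scaled log2 level and a measured ratio of -2.84 ± 0.60 (SD, 4 arrays). In such bulk RNA, fewer cells that make a transcript and less of it per cell cannot be told apart. The ratio of SPP1 was positive on all A2780CBN arrays and negative on all A2780CBNDXL arrays. With normexp background correction (offset of 50) and loess normalization together, SPP1 in A2780CBNDXL no longer passed the rule and had a ratio of -0.27, and in A2780CBN its ratio was 3.33.

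WFDC2, known as HE4, is a small secreted protein with WAP domains. Its first probe gave 125, 119, 117 and 88.6 in A2780CBN and 51.1, 67.8, 36.6 and 43.8 in the control on the same arrays. The ranges did not overlap, and the WFDC2 ratio of 1.20 ± 0.37 (SD, 4 arrays), or 2.29-fold, ranked 719 among the 998 higher genes measured in both channels. In A2780CBNDXL the signal was 62.5, 43.9, 42.0 and 42.0 against 57.9, 57.8, 42.6 and 39.8 in its control. These ranges overlapped, and the ratio was -0.06 ± 0.23 (SD, 4 arrays). All WFDC2 signals of the first probe were called well above background, though the lowest of them, 36.6, was close to the dimmest measured signals. The second WFDC2 probe was measured on no array, with signals between 4.22 and 25.7. The A2780CBN ratio was 1.48 on the forward and 0.92 on the reverse arrays, and WFDC2 did not pass the rule with the reverse arrays alone or with normexp and loess, where its ratio was 0.22.

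CLU encodes clusterin, a secreted chaperone that binds misfolded proteins, and its probe lies at chr8:27513320-27513379 of NCBI36, on the minus strand. It was bright in all samples, at 6518, 5243, 5703 and 4676 in A2780CBN against 2932, 3632, 2650 and 3375 in its control. The CLU ranges did not overlap in A2780CBN, but the ratio of 0.82 ± 0.36 (SD, 4 arrays), or 1.76-fold, stayed under the 2-fold limit. In A2780CBNDXL the CLU signal was 2095, 2429, 2174 and 2087 against 3235, 3028, 3259 and 2468 in its control, and there too the ranges did not overlap. That ratio was -0.44 ± 0.19 (SD, 4 arrays). The forward arrays gave larger CLU ratios than the reverse arrays in both lines, 1.13 against 0.50 in A2780CBN and -0.60 against -0.28 in A2780CBNDXL. With the forward arrays alone CLU passed the 2-fold rule in A2780CBN.

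FOLR1, the folate receptor alpha, takes up folate by endocytosis and is a target of antibody drugs in ovarian cancer. In A2780CBN its signal was 202, 244, 235 and 302, and in the control 394, 281, 419 and 342. The channel ranges overlapped, though the resistant line was lower on each of the 4 arrays, with a FOLR1 ratio of -0.54 ± 0.41 (SD, 4 arrays). In A2780CBNDXL the signal was 1883, 1179, 1010 and 1094 against 1670, 875, 924 and 847 in its control. Here the ranges overlapped as well, the resistant line was higher on each array, and the ratio was 0.28 ± 0.15 (SD, 4 arrays). Neither ratio reached the 2-fold limit, and in A2780CBN the forward arrays gave -0.90 and the reverse arrays -0.19.

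MUC1 gave 556, 439, 518 and 421 in A2780CBN and 339, 404, 312 and 399 in its control, so that the ranges did not overlap. Its ratio depended on the labelling, with 0.72 on the forward and 0.10 on the reverse arrays of A2780CBN, and the mean was 0.41 ± 0.36 (SD, 4 arrays). In A2780CBNDXL the MUC1 signal was 669, 806, 762 and 682 against 401, 474, 461 and 399 in the control. These ranges were apart, and the 4 ratios lay between 0.73 and 0.77, with a mean of 0.75 ± 0.02 (SD, 4 arrays), or 1.68-fold. MUC1 thus had the smallest spread between arrays of the 5 measured members in this line, and it passed a 1.5-fold limit there but not the 2-fold limit.

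**Figure D2:**
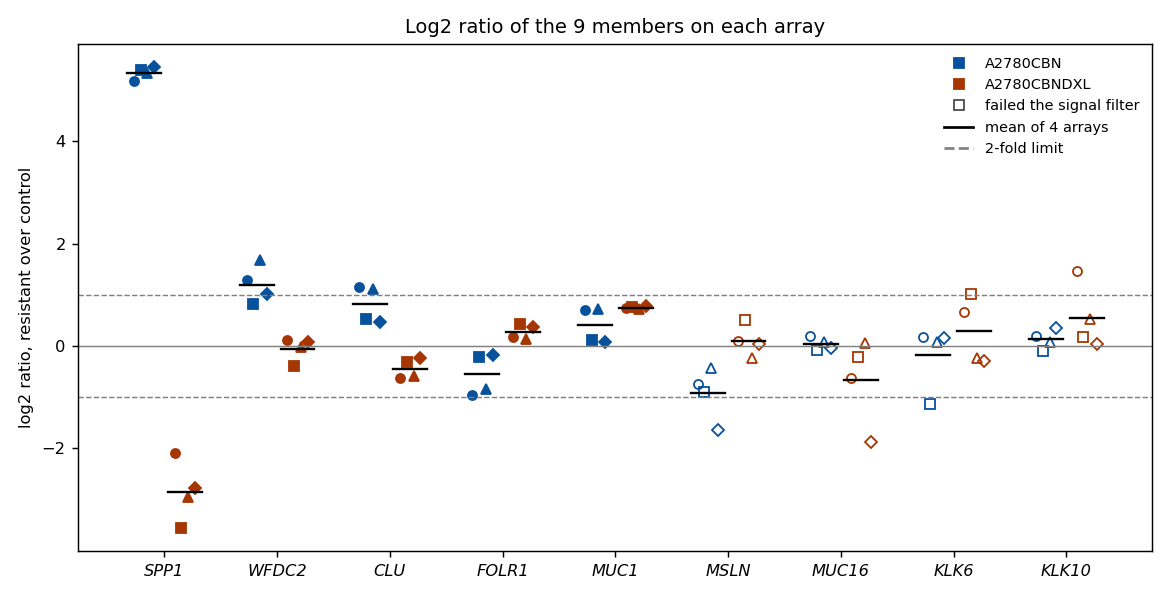
Log2 ratio of resistant line over control for the 9 members on each of the 4 arrays of A2780CBN (blue) and A2780CBNDXL (orange); symbols mark the arrays as in the plot of signals, black bars are means, dashed lines the 2-fold limit, and open symbols members that failed the signal filter. The SPP1 ratios stand at 5.17 to 5.45 in A2780CBN and at -3.55 to -2.09 in A2780CBNDXL, with the WFDC2 mean of A2780CBN the other mean beyond the limit.

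MUC16, MSLN, KLK6 and KLK10 failed the signal filter in both lines, so their ratios carry no direction. MUC16 signals were between 4.22 and 5.05 in A2780CBN, 4.48 and 8.76 in A2780CBNDXL, and 4.10 and 18.9 in the controls. MSLN reached higher signals, 5.78 to 14.1 in A2780CBN, 11.5 to 25.7 in A2780CBNDXL and 13.6 to 26.3 in the controls, none of them called well above background. KLK6 was measured once, at 52.5 in A2780CBNDXL on array 1, and was between 4.20 and 33.0 elsewhere. The brighter KLK10 probe was measured in both channels of array 4 of A2780CBNDXL, at 43.8 (resistant line) and 42.7 (control), and was between 4.12 and 19.2 elsewhere. The second KLK10 probe stayed between 4.49 and 15.1. These 4 genes, the antigen CA125 among them, were not detectable as steady transcripts at the sensitivity of this array, which does not show that they are absent.

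**Figure D3:**
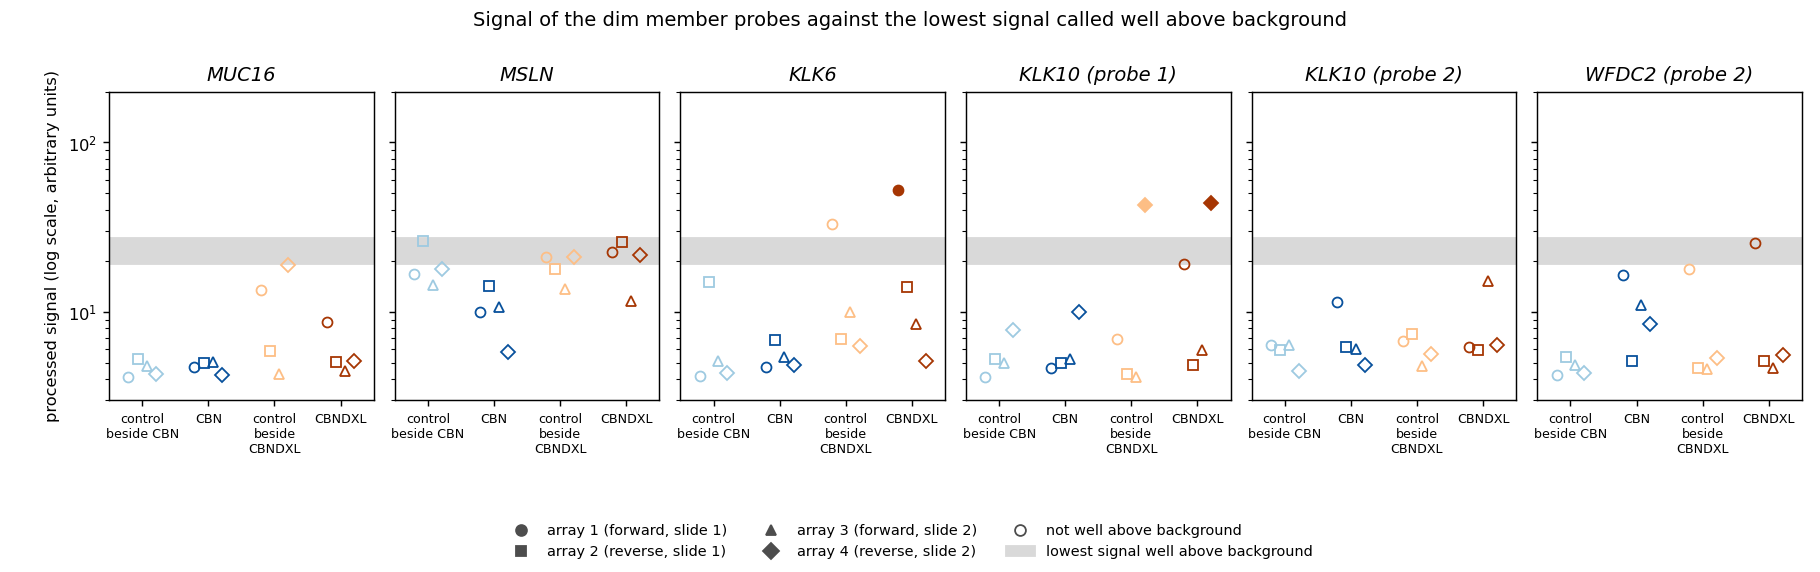
Processed signal on a log axis of the 6 member probes that failed the signal filter, by array, channel and line; filled symbols are well above background, open ones are not, and the grey band holds the dimmest signals called well above background. The filled symbols are 1 of KLK6, at 52.5, and 2 of KLK10, at 43.8 and 42.7.

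The resistant lines were then compared with each other directly, through the resistant channels of arrays matched on slide and labelling and scaled between arrays. By the same 2-fold rule 15.4% of the 18390 genes that passed the signal filter differed between the lines. Of the 9 members 5 passed this filter, and 4 of them differed. SPP1, WFDC2 and CLU were lower and FOLR1 was higher in A2780CBNDXL than in A2780CBN. The SPP1 difference was -8.99 ± 0.25 (SD, 4 pairs) as measured. Since SPP1 was not above background in A2780CBNDXL, it is given as at least 188.5-fold for the processed signals. With normexp and loess the SPP1 difference was smaller, at -3.78, so the bound does not hold for that correction. CLU differed by -1.49 ± 0.13 (SD, 4 pairs), or 2.81-fold, with all pairs between -1.64 and -1.34. WFDC2 differed by -1.31 ± 0.37 (SD, 4 pairs), or 2.48-fold. The WFDC2 difference fell under the limit, to -0.86, as the mean over both probes, and to -0.24 with normexp and loess. MUC1 was higher in A2780CBNDXL in all 4 pairs, but by 0.51 ± 0.17 (SD, 4 pairs), or 1.43-fold.

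The controls carry no drug selection, and 4.27% of 18179 genes differed 2-fold between them. FOLR1 was the member that did. The control beside A2780CBNDXL was higher than the control beside A2780CBN in all 4 pairs, by 2.21, 1.45, 0.91 and 1.24, with a mean of 1.45 ± 0.55 (SD, 4 pairs), or 2.74-fold. The FOLR1 difference between the resistant lines was 2.27 ± 0.72 (SD, 4 pairs), or 4.83-fold, beside the 1.45 between the controls. Array 1 gave the largest FOLR1 difference in both comparisons, 3.34 between the lines and 2.21 between the controls. With normexp and loess the FOLR1 difference between the controls was 0.71 and no longer passed the rule, and that between the lines was 1.14. The CLU, WFDC2 and MUC1 controls differed by -0.23, -0.06 and 0.17 on average, with a sign that was not the same in all pairs. The SPP1 controls differed by -0.82 ± 0.56 (SD, 4 pairs), negative in all 4. With the control taken from the other line's arrays, FOLR1 passed the rule in both lines, at -1.997 in A2780CBN and 1.73 in A2780CBNDXL, and CLU passed it in A2780CBN.

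**Figure D4:**
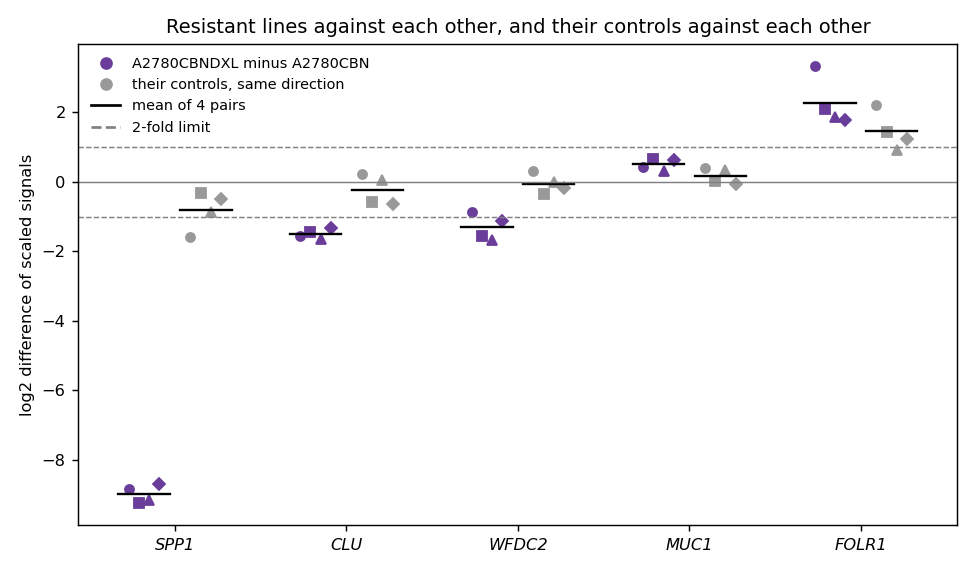
Log2 difference of scaled signals on the 4 pairs of arrays matched on slide and labelling, for A2780CBNDXL minus A2780CBN (purple) and for the control beside A2780CBNDXL minus the control beside A2780CBN (grey); black bars are means and dashed lines the 2-fold limit. The FOLR1 means are 2.27 between the lines and 1.45 between the controls, while CLU and WFDC2 differ between the lines with control means near 0.

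Ordered by their scaled levels, the samples fell into different sequences for each member. For SPP1 the order was A2780CBN, its control, the control beside A2780CBNDXL and A2780CBNDXL, at log2 levels of 11.9, 6.55, 5.73 and 2.89, and no neighbours overlapped. For CLU the order was the same, at 12.51, 11.69, 11.46 and 11.02, and the ranges of the controls overlapped. For WFDC2 A2780CBN stood apart at 6.83, while the other samples overlapped between 5.52 and 5.63. For FOLR1 the samples fell into the arrays they came from, A2780CBNDXL and its control at 10.2 and 9.95, then the control beside A2780CBN and A2780CBN, the latter at 7.96, with an overlap within each pair and none between the pairs. For MUC1 A2780CBNDXL stood apart at 9.46, above A2780CBN at 8.95 and the controls at 8.71 and 8.54, whose ranges overlapped with their neighbours.

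WFDC2 was the changed member that could be compared with other genes in every channel. Over the 16 scaled channel values, among 14734 genes measured in all of them, the named genes with the most similar pattern were FAM21A, a name used for near-identical copies of a WASH complex subunit, with a Pearson correlation of 0.957, and ID4, an inhibitor of DNA binding, with 0.945. These values share 4 RNA sources and the same arrays and are given as a description. Neither gene passed the fold rule, with ratios of 0.73 and 0.38 in A2780CBN.

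The families of the members were taken as fixed lists, in which 18 genes were changed in A2780CBN and 22 in A2780CBNDXL. All kept their direction with both other background corrections, but 4 and 12 of them stayed past the 2-fold limit with normexp and loess. Over all genes that passed the signal filter, 12.6% were changed in A2780CBN and 17.0% in A2780CBNDXL, to be set beside the list counts below. The lists were chosen with earlier results of these data known.

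Of 12 other mucins on the array, 8 passed the signal filter in each line, and 1 was higher and 1 lower in both. MUC20 was changed by 1.12 ± 0.43 in A2780CBN and 1.11 ± 0.12 in A2780CBNDXL (SD, 4 arrays). MUC15 was lower in both, but its signal in the resistant lines was not well above background. For the processed signals it was at least 1.97-fold lower in A2780CBN and at least 4.37-fold lower in A2780CBNDXL. With normexp and loess the MUC15 ratios were -0.19 and -0.44. The median log2 ratio of the measured mucins was -0.22 in A2780CBN and 0.19 in A2780CBNDXL. Of 17 enzymes that build O-linked glycans on mucins, 3 were higher and 2 lower in A2780CBN among the 13 that passed the filter, with a median of -0.04. GALNT14 and GALNT6, which add the first sugar, were at least 3.92-fold and 3.03-fold higher, and the sialyltransferase ST3GAL1 was at least 2.09-fold higher, all of them not measured in the control. GCNT1, which branches the core glycan, was at least 2.11-fold lower. These bounds hold for the processed signals. With normexp and loess the ratios of GALNT14, GALNT6, ST3GAL1 and GCNT1 were 0.41, 0.25, 0.24 and -0.2. In A2780CBNDXL 1 of 9 changed, GALNT12, at -1.42, and the median was -0.27.

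KLK6 and KLK10 belong to a cluster of protease genes on chromosome 19, where RefSeq places KLK7, KLK8 and KLK9 between them. In A2780CBNDXL KLK8 was higher, with signals of 1802 to 4525 against 21.9 to 170 in the control and a ratio of 5.32 ± 0.73 (SD, 4 arrays). The KLK8 control was not measured on array 1, where the ratio was 6.36, and the other arrays gave 4.73 to 5.23. KLK7 was measured at 65.5 to 103 in A2780CBNDXL and not in its control, and was at least 4.12-fold higher for the processed signals. With normexp and loess the ratios of KLK7 and KLK8 were 0.44 and 3.17. KLK9, which lies between KLK8 and KLK10, had a ratio of 0.16 ± 0.10 (SD, 4 arrays). These 2 genes were the changed ones of 5 that passed the filter in A2780CBNDXL, with a median of 0.53, and of 4 that passed in A2780CBN none changed, with a median of -0.23. Of 14 other genes with WAP domains, WFDC5 was higher, at least 1.53-fold, and WFDC1 lower, at -1.09, in A2780CBN, and none of 3 that passed the filter changed in A2780CBNDXL. The medians of this list were -0.06 and 0.25. With normexp and loess the ratios of WFDC5 and WFDC1 in A2780CBN were 0.09 and -0.14.

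Of 14 genes of folate uptake and use, 13 passed the filter in A2780CBN and none changed, with a median of -0.11. In A2780CBNDXL 3 of 10 were lower and none higher, with a median of -0.19. FOLH1, a surface enzyme that trims folate chains, had signals of 42.7 to 99.9 against 1319 to 1817 in the control and a ratio of -4.56 ± 0.88 (SD, 4 arrays). The mitochondrial enzymes MTHFD2 and SHMT2 had ratios of -2.64 ± 0.46 and -1.43 ± 0.08 (SD, 4 arrays).

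Among 13 osteopontin receptors and relatives, none of 5 that passed the filter changed in A2780CBN, with a median of 0.24. In A2780CBNDXL the integrin subunit ITGB5 was higher, at 2.85 ± 0.23, and ITGAV, the subunit it pairs with, was lower, at -2.28 ± 0.40 (SD, 4 arrays), with a median of 0.06 over 4 genes. Of 7 clusterin partners, none of 5 changed in A2780CBN and the median was 0.07. In A2780CBNDXL the lipoprotein receptors VLDLR and LRP8 were lower, at -4.94 ± 0.26 and -2.79 ± 0.30, and vitronectin (VTN) was higher, at 1.40 ± 0.21 (SD, 4 arrays), with a median of -0.73 over 5 genes. VLDLR was measured on 3 of the 4 arrays in this line.

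Of 34 other surface and secreted markers of ovarian cancer on the array, 18 passed the filter in A2780CBN, where 7 were higher and 2 lower with a median of 0.54, and 15 in A2780CBNDXL, where 4 were higher and 5 lower with a median of -0.19. The adhesion molecule CEACAM1 was 3.65 ± 0.45 and the secreted lectin ligand LGALS3BP 3.01 ± 0.42 in A2780CBN (SD, 4 arrays). For the processed signals alpha-fetoprotein (AFP) was at least 3.07-fold higher there and prolactin (PRL) at least 2.94-fold lower. With normexp and loess the AFP and PRL ratios were 0.34 and -0.37. In A2780CBNDXL the proteoglycan GPC3 was 4.41 ± 0.13 and the growth factor midkine (MDK) 2.98 ± 0.33, while the adhesion molecule ALCAM was -4.82 ± 0.58 (SD, 4 arrays) and ceruloplasmin (CP) at least 4.35-fold lower. ALCAM was measured on 1 of the 4 arrays in this line. With normexp and loess the ratio of ALCAM was -1.56 and that of CP -0.46. GPC3 was also higher in A2780CBN, at 1.60 ± 0.27 (SD, 4 arrays).

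**Figure D5:**
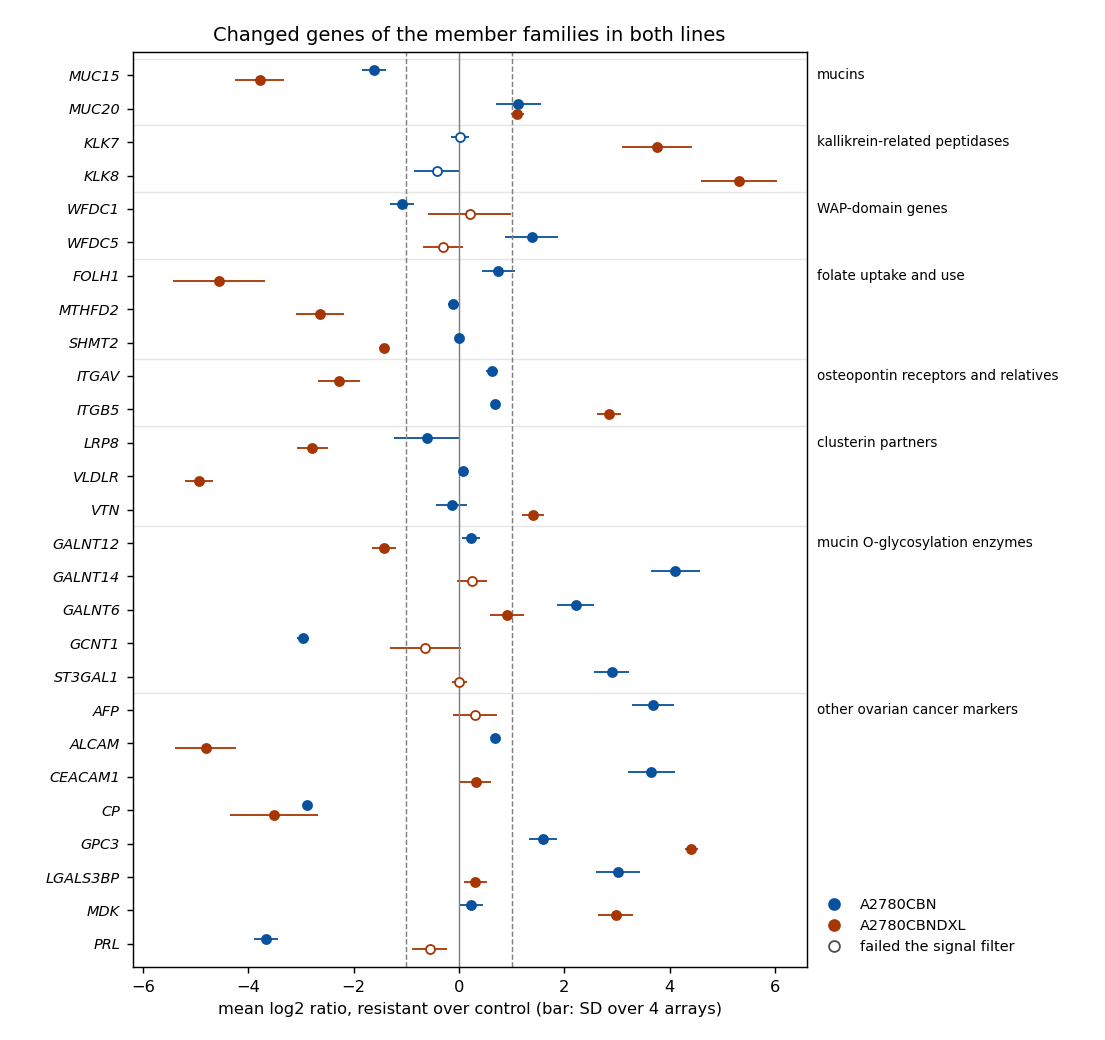
Mean log2 ratio of resistant line over control of the named changed genes of the family lists, in A2780CBN (blue) and A2780CBNDXL (orange), with bars for the SD over 4 arrays, dashed lines at the 2-fold limit and open points for genes that failed the signal filter in that line. The measured means of MUC20, MUC15, GPC3 and CP lie beyond the limit on the same side in both lines. MUC15 and CP were not measured in either resistant line, and as bounds they were at least 1.97-fold and 1.85-fold lower in A2780CBN. With normexp and loess only GPC3 of these genes stayed past the limit. KLK7 and KLK8 lie beyond it in A2780CBNDXL and failed the signal filter in A2780CBN.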

How the data were processed

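RNA of the lines A2780CBN and A2780CBNDXL and of their co-cultured controls was compared on 8 Agilent two-colour arrays, 4 per line. The authors deposited Agilent Feature Extraction output, of versions 10.7.1.1 (slide 1) and 10.7.3.1 (slide 2), with probe coordinates on NCBI36. The processed intensity of each channel in the deposited files is background-subtracted and dye-normalized. The submitters' processing notes also name Partek. The deposited log10 ratios of the scanner software were not used. Direction was read from the forward arrays, with Cy5 on the resistant line and Cy3 on the control. The dye entries of the reverse arrays repeat the forward ones against their name, so these arrays were turned over as named. After this, log2 ratios correlated at 0.581 to 0.739 between labelling directions. Arrays of a line with the same labelling correlated more closely, at 0.852 to 0.898, so the ratios depended in part on the labelling direction.

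Spots marked as outliers (0.38 to 2.32% per array) were removed, and none was saturated. A channel had 59.8 to 67.5% of its spots well above background. Log2 spot values of a probe were averaged, and both labelling directions had equal weight in a mean ratio. Where a gene had several probes, the brightest on average stood for it. Differences between lines or controls used channel values scaled by the Aquantile method of limma 3.58.1 in R 4.3.3. A channel not above background on any array entered as a bound, the higher of the lowest measured signal and its own, averaged over arrays. Values given as at least a fold are bounds for the processed signals only, and were not remade with normexp and loess. Each line is 1 sample, and nothing says that its 3 RNA isolations came from separate cultures. The number of arrays limits the precision. The members and the gene lists were chosen with earlier results of these data known. Up to 4 changed genes of each list and line, those with the largest ratios, were named.

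Alternatives were normexp with an offset of 50 and loess, background-subtracted signals floored at 1, single arrays left out, single slides, single labelling directions, other filters, a 1.5-fold limit, the mean over probes, the control of the other line, a 3-way ANOVA as the methods name, with line, dye and slide taken here as its factors, and limma with a dye effect, with or without slide as a block. P-values of the last methods measure array error only. The fold rule was run on simulated data of the 17949 genes of A2780CBN and recovered 200 of 200 changed genes with 2 false calls. For the 17120 genes of A2780CBNDXL it recovered 199 of 200 with 3 false calls. Recovery of changes close to the 2-fold limit, or of signals not above background, was not tested. The A2780DXL line was not analysed here, and 1 gene of the other ovarian cancer markers is not reported here.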

Additional observations from a re-analysis of the deposited data

Results flagged for a closer look

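The log2 ratios of 3 members had one sign on all 4 arrays of A2780CBN and the opposite sign on all 4 arrays of A2780CBNDXL. The ratio in A2780CBNDXL minus that in A2780CBN was -8.17 for SPP1, -1.26 for CLU and 0.82 for FOLR1. These differences were not tested, since each line is 1 sample. The share of all genes with opposite signs in this way was not counted, so nothing is read from the number of members. SPP1 was not well above background in A2780CBNDXL, so its value is a measured one and not a bound. The ratios of CLU and FOLR1 were under 2-fold in both lines, and for FOLR1 the controls themselves differed by 1.45 in the same direction.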

How the results depend on the processing

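Of 65 values of the 5 measured members with normexp and loess, with background-subtracted signals, as means over probes or with the control of the other line, 47 moved by less than 1 SD between arrays, 18 moved by more, and none of the called ones changed sign. The count of changed members in A2780CBN, 2, was 1 with normexp and loess and with the reverse arrays alone and 4 with the control of the other line. The count in A2780CBNDXL, 1, was 0 with normexp and loess and with a signal above background required in both channels, which removes SPP1 by construction, and 2 with a 1.5-fold limit or the control of the other line. The count that differed between the lines was 3 or 4 under all alternatives run. The count that differed between the controls, 1, was 0 with normexp and loess and 2 with a 1.5-fold limit. Changed genes of the family lists numbered 18 in A2780CBN, and 4 with normexp and loess, 7 with both channels above background and 28 with a 1.5-fold limit. In A2780CBNDXL they numbered 22, and 12 with normexp and loess and 14 with both channels above background. Leaving out each array in turn left these counts at 2 in A2780CBN, 1 in A2780CBNDXL, 4 between the lines and 1 between the controls, and the family counts at 17 to 18 and 21 to 24. Normexp and loess were changed together, and the cause of these and the other shifts was not tested. Signal over background limits what can be said of the dim members. No paired analysis was possible because each line is 1 sample and the replicate numbers name technical repeats.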
